A study of Mus musculus with 96 samples.

Results

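The glutathione and antioxidant genes described here were 43 genes chosen by symbol from the 55487 genes of the count table. They were read over 96 single cells and within the 48 pairs of daughter cells that these cells form, and 42 of the 43 passed the filter used here, 10 counts or more in 10% of cells or more, as did 14463 genes of the table. All cells were horizontal basal cells (HBCs), reserve stem cells that lie at the base of the olfactory epithelium (OE), from wild type mice that were 6 to 8 weeks old. The OE was taken 2 days after an injection of methimazole, a drug that strips the epithelium and activates HBCs. The HBCs were then grown ex vivo in complete HBC medium, on Tropoelastin and then Fibronectin, and both daughters of a division were picked by mouth pipette with their pairing noted. RNA was captured on oligo-dT beads by G&T-seq with synthetic ERCC transcripts added to each lysate. Every cell shares this genotype, injury and medium, and no uninjured cells were analysed here, so that the values describe cultured HBCs of injured OE and not HBCs at rest. No mouse and no culture dish is named for any cell. The 96 cells were therefore taken as 1 sample of 1 condition, and no p-values are given.

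Glutathione is a small thiol peptide made from glutamate, cysteine and glycine, and cells use it to reduce peroxides and to conjugate reactive compounds. Many genes that make, use or recycle it are switched on by NRF2 (Nfe2l2), a transcription factor that KEAP1 holds in the cytoplasm and marks for degradation until oxidants or electrophiles modify KEAP1. NRF2 binds DNA at the antioxidant response element. In the nose these enzymes act beside cytochromes P450, which convert inhaled compounds and also activate methimazole.

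The reference promoters show where the letters of such elements lie in these genes. RefSeq promoter windows of GRCm38.p6, which run from 250 bases before to 50 bases after a gene's start, were matched for 36 of the 43 genes. The core letters TGACNNNGC, searched on both strands, lay in the windows of 11 of these 36 genes (30.6%), and in those of 14.0% of 27025 genes of the RefSeq table. The letters TGANTCA, the AP-1 motif, which reads the same on both strands and can overlap the former, lay in 8 of 36 genes (22.2%) and in 8.97% of the 27025. The stretches below are shown because they hold these letters in genes on which the results turn: Gclm follows the other members most closely, Prdx1 carries both motifs in overlap, Sod1 is among the most abundant members, and Blvra, Osgin1 and Srxn1 are among the 6 members in which daughters differed most often. Capitals mark the motif, written on the strand of the gene, and none of the bases lies in an annotated exon of GENCODE M21.
Gclm, chr3:122245401-122245453, + strand, TGACNNNGC on the opposite strand: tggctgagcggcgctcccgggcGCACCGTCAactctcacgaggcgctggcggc
Prdx1, chr4:116685444-116685496, + strand, TGACNNNGC on the opposite strand: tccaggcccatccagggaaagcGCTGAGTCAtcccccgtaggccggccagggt
Sod1, chr16:90220684-90220736, + strand, TGACNNNGC on the opposite strand: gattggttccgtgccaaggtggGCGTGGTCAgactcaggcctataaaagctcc
Blvra, chr2:127070586-127070638, + strand, TGACNNNGC on the opposite strand: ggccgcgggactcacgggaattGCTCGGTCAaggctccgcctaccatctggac
Srxn1, chr2:152105457-152105507, + strand, TGANTCA: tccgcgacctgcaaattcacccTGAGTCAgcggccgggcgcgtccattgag
Osgin1, chr8:119437028-119437078, + strand, TGANTCA: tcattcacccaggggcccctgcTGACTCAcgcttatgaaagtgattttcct
A match of letters is not a binding site, and binding was not measured in these cells. The 11 genes with the core letters had a median intraclass correlation, the measure of likeness between daughters used below, of 0.51, and the 25 without them one of 0.59.

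Each cell had between 29454150 and 44849003 reads on genes, with a median of 36152760, and ERCC transcripts took 1.06% to 5.75% of all counts. Levels are given as CPM, a cell's counts scaled to a fixed total of counts on genes,, and as TPM, which also divides by gene length, where genes are compared with each other. Molecules carry no identifiers in G&T-seq, and PCR duplicates are therefore part of every count. The intervals given below are binomial, for a number of pairs out of all pairs. They treat pairs as independent draws and cover neither error of the read counts nor differences between sets, mice or dishes. Of 8 HBC markers all passed the filter and 6, among them Trp63, Krt5 and Krt14, were counted in every cell. Of 10 markers of sustentacular cells, the supporting cells of the OE, 3 passed: Krt8, Krt18 and Cyp2a5, which was counted in 21 cells at up to 6730 CPM. Of the other markers on that list Cyp1a2, Ermn, Sec14l3 and Sult1c1 had no count in any cell. By the names of the deposited data the cells fall into 12 sets of 8, and the 4 pairs of a set are complete; what a set stands for is not stated. Set 1 stands apart for these genes: the mean z score over the 42 members averaged -0.79 in its 8 cells, against averages from -0.30 to 0.27 in the other 11 sets. Values without set 1 or within sets are given beside the results below.

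RNA of most of the genes was found in every cell. Of the 43 members, 37 were counted in every cell, against 31.8% of all genes that passed the filter. The members are abundant, with a median mean count of 17055 against 771 for all these genes, and genes of like count were not compared. In every cell 33 members had 10 or more counts, and 31 had a TPM of 1 or more. For these latter counts no share over all genes was taken. Together they took 2.73% of the counts on genes in the median cell, from 1.26% in the lowest cell to 5.66% in the highest. By median TPM the order was led by Gsta4 with 3677 and Gsto1 with 3591, followed by Sod1 with 3502, Gstp1 with 2275, Gpx2 with 2066 and Aldh3a1 with 1951. Neighbours in this order overlapped widely over the cells.

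**Figure D1:**
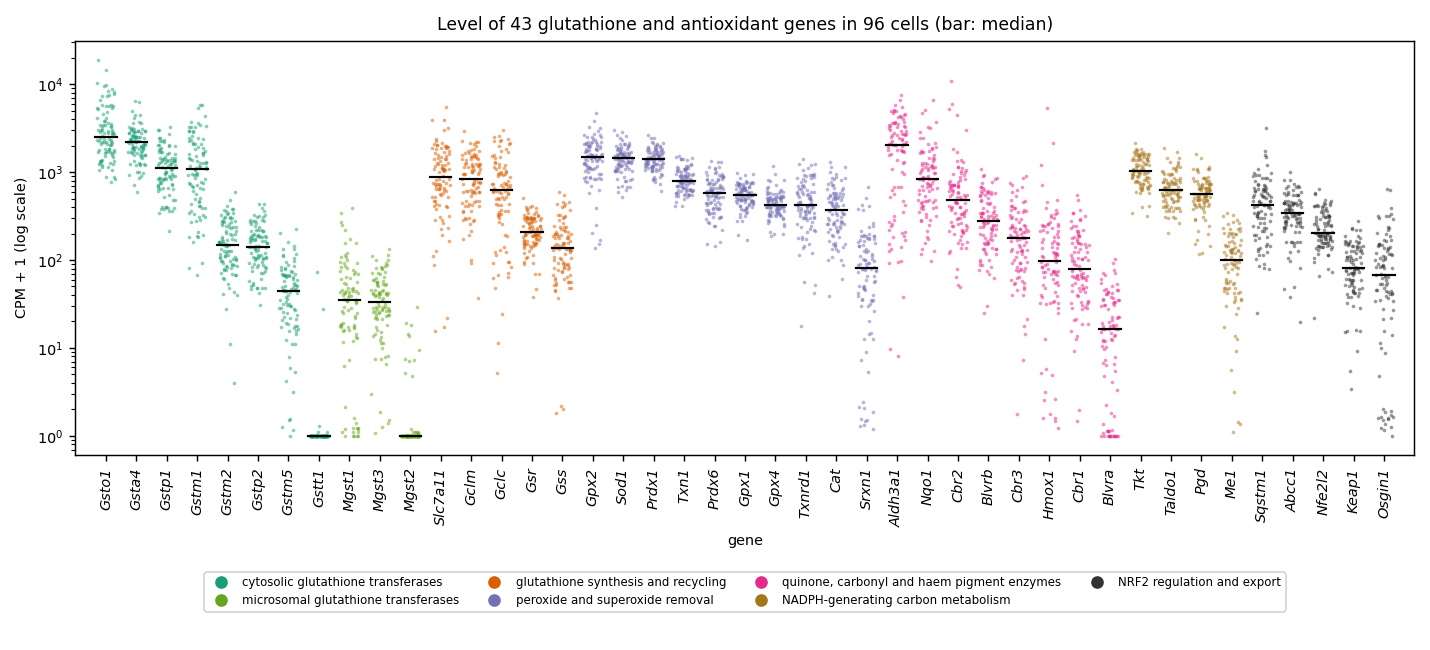
Level of each of the 43 genes in each of 96 cells, as CPM + 1 on a log axis, with genes on the horizontal axis grouped and coloured by role. Each point is a cell and each bar the median. Sod1, Prdx1 and Txn1 form narrow bands, whereas Hmox1, Osgin1, Srxn1 and Blvra spread over more than 100-fold and Gstt1 and Mgst2 lie at 0 in most cells.

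Cytosolic glutathione transferases join glutathione to electrophiles, and 7 of the 8 listed here passed the filter. Gsto1, an omega class enzyme with reductase activity (chromosome 19 of GRCm38 from 47854970 to 47864790), had a lowest CPM of 764, a median of 2522 and a highest of 18991. Gsta4, an alpha class enzyme that conjugates products of lipid peroxidation (chromosome 9 from 78182774 to 78209349), ran from 589 through 2179 to 6493 CPM. Both were high in every cell. Gstm1, a mu class enzyme (chromosome 3 from 108012255 to 108017973), varied far more, from 66.7 through 1085 to 5833 CPM. In pair 14 its daughters had 5329 and 5739 CPM and in pair 29 they had 5833 and 4303, whereas in pair 10 they had 92.2 and 183. In these pairs both sisters were high or both low, but in pair 22 the sisters had 2268 and 452 CPM. Gstp1, a pi class enzyme (chromosome 19 from 4035407 to 4037985), ran from 211 through 1099 to 3283 CPM, and its neighbour Gstp2 from 30.1 through 141 to 435 CPM. The ratio of Gstp2 to Gstp1 counts lay between 0.111 and 0.175 in all 96 cells. The transcripts of the 2 genes share 44.3% of their 50-base stretches, counted over those of Gstp2, so that the authors' counting could have split reads between them and they cannot be taken as separate observations. Gstm2 had a median of 148 CPM and Gstm5 one of 43.6 CPM, and they share 0.961% and 0% of their 50-base stretches with Gstm1. Gstt1, a theta class enzyme, did not pass the filter: it was counted in 5 cells and had 10 or more counts in 3. Its highest level was 72.6 CPM, in daughter 2 of pair 4, whose sister had no count.

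Microsomal glutathione transferases sit in membranes, and all 3 were low. Mgst1 had a median of 34.3 CPM and was counted in 91 cells. Mgst3 had a median of 32.7 CPM and was counted in all cells. Mgst2 was counted in 18 cells, with 28.1 CPM as the highest value, and in 34 pairs neither daughter had a count.

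The genes of glutathione synthesis and recycling were all counted in every cell. Slc7a11, the cystine transporter that supplies the cysteine for glutathione (chromosome 3 from 49892526 to 50443614), ran from 14.6 through 869 to 5510 CPM. In pair 12 the daughters had 3891 and 5510 CPM, and in pair 4 they had 16.5 and 21.0. The pairs with the lowest means were pairs 4, 2 and 1, all of set 1. Gclc and Gclm, the catalytic and modifier subunits of glutamate-cysteine ligase, the rate-limiting enzyme of the synthesis, had medians of 630 and 833 CPM. Pair 14 was high in both subunits, with 2237 and 2517 CPM of Gclc and 2135 and 2926 CPM of Gclm. Gss, which adds glycine in the last step, had a median of 136 CPM and Gsr, which reduces oxidised glutathione, one of 207 CPM.

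Among the enzymes that remove peroxide and superoxide, 10 of 10 were counted in every cell. Sod1, the cytosolic superoxide dismutase, ran from 518 through 1439 to 3019 CPM, and Prdx1, a thiol peroxidase, from 614 through 1394 to 2614 CPM. Between the quartiles of the cells these levels differed 1.47-fold for both genes. Gpx2, a glutathione peroxidase of epithelia, ran from 134 through 1482 to 4744 CPM, and its 3 lowest pairs were pairs 1, 2 and 3 of set 1. Gpx1 and Gpx4, which reduce hydrogen peroxide and lipid peroxides, had medians of 551 and 418 CPM. Cat, catalase, had a median of 373 CPM, Prdx6, a peroxiredoxin, one of 582 CPM, and Txn1, thioredoxin, one of 790 CPM. Srxn1, which restores oxidised peroxiredoxins, was the most uneven of this group, from 0.195 through 79.6 to 675 CPM.

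Quinone, carbonyl and haem pigment enzymes included some of the widest ranges. Aldh3a1, an aldehyde dehydrogenase, ran from 7.20 through 2015 to 7595 CPM, and the quartiles of the cells differed 6.51-fold. Nqo1, the quinone reductase that serves as a standard readout of NRF2, ran from 95.8 through 835 to 6602 CPM, with 5052 and 6602 in the daughters of pair 29 and 154 and 115 in those of pair 2. Cbr2, a carbonyl reductase, ran from 47.7 through 478 to 10881 CPM. The related Cbr1 and Cbr3 had medians of 77.3 and 178 CPM. In Cbr2 set 1 was not low: its median was 1583 CPM against 442 CPM in the other cells. Blvrb, a biliverdin and flavin reductase, had a median of 277 CPM and Blvra, the biliverdin reductase that makes bilirubin, one of 15.5 CPM. Hmox1, the inducible haem oxygenase, had a median of 97.1 CPM and a highest value of 5361 CPM, in daughter 2 of pair 17, whose sister had 51.6 CPM.

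The regulators and the exporter were of middle level. Nfe2l2 ran from 20.9 through 202 to 648 CPM and Keap1 from 2.43 through 80.3 to 278 CPM, so that neither regulator was missing from a cell. Sqstm1, an autophagy receptor that binds KEAP1, had a median of 421 CPM, and Abcc1, an exporter of glutathione conjugates, one of 338 CPM. Osgin1, a growth inhibitor induced by oxidative stress, had a median of 66.5 CPM and no count in 1 cell. The genes that regenerate NADPH, the reductant these enzymes draw on, had medians of 98.3 CPM for Me1, malic enzyme, 565 CPM for Pgd, phosphogluconate dehydrogenase, 632 CPM for Taldo1, transaldolase, and 1039 CPM for Tkt, transketolase.

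How far daughters of a division resembled each other was then measured by the intraclass correlation, the share of a gene's variance in log2(CPM + 1) that lies between pairs. It is 1 when sisters are identical and near 0 when they are no more alike than unrelated cells. Of the 42 members that passed the filter, 25 (59.5%) had a value over 0.5, against 4.4% of all 14463 genes, and the median was 0.54 against 0.11. The members were chosen with earlier results of these data known. Among 49 other genes of the pathway, described below, the share was 14.3%. Sisters were most alike in Gstm1 with 0.87, Slc7a11 with 0.82, Gstp1 with 0.81, Cbr2 with 0.80, and Blvrb and Gstp2 with 0.79 each. By role, the value passed 0.5 in 5 of 7 cytosolic glutathione transferases, 3 of 5 synthesis and recycling genes, 6 of 10 peroxide and superoxide genes, 6 of 8 quinone, carbonyl and pigment enzymes, all 4 NADPH genes and 1 of 3 microsomal transferases. Among them were Taldo1 with 0.73, Cat with 0.59 and, just inside, Pgd with 0.51. None of the 5 genes of regulation and export reached it: Sqstm1 had 0.44, Nfe2l2 0.34, both Keap1 and Abcc1 0.27 and Osgin1 0.11.

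**Figure D2:**
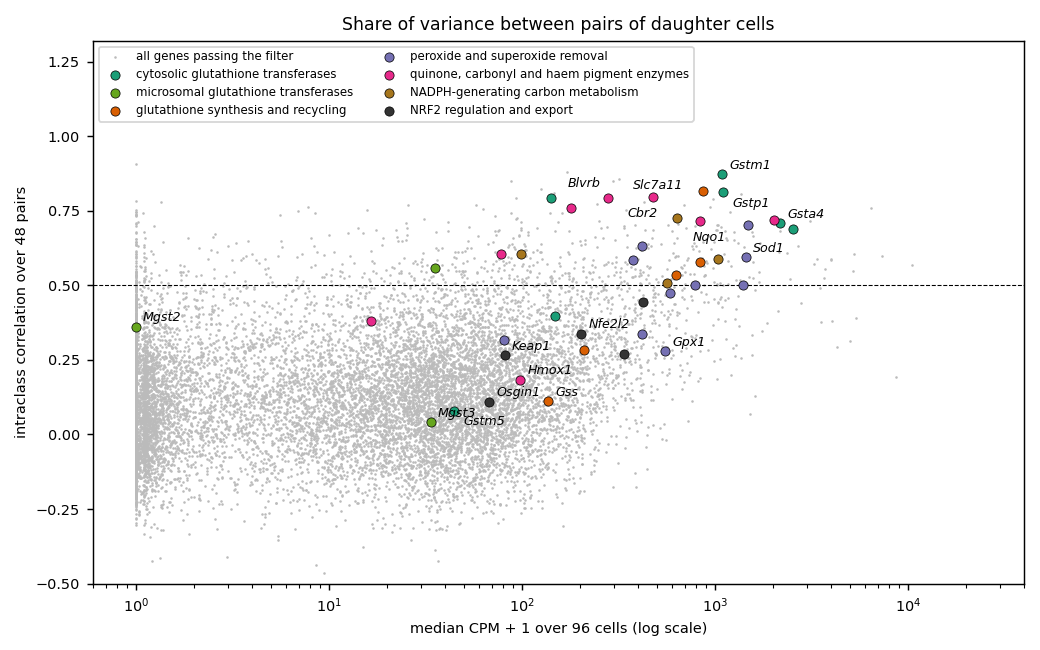
Intraclass correlation of log2(CPM + 1) over 48 pairs (vertical axis) against the median CPM + 1 over 96 cells on a log axis, for all genes passing the filter (grey) and for the 42 members coloured by role. The dashed line marks 0.5; 25 of the 42 members lie above it, with Gstm1 highest at 0.87, and the 5 genes of regulation and export lie below.

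The least alike sisters were found for Mgst3 with 0.04, Gstm5 with 0.08, Osgin1 and Gss with 0.11 each, Hmox1 with 0.18 and Keap1 with 0.27. These are genes of lower count, and level moved with the measure over the whole table. Among 590 genes with a mean of 10000 or more counts, 33.2% exceeded 0.5 and the median was 0.40, while 20 of the 25 members at this level exceeded it, with a median of 0.59. Among 5777 genes with a mean of 1000 to 10000 counts, 4.62% exceeded 0.5 with a median of 0.14, and 5 of 15 members did, with a median of 0.32. In both classes the member shares stood above those of all genes, but by less than the comparison with the whole table shows. The upper class has no upper limit, so that counts within it were not matched. As the members were chosen with earlier results of these data known, this excess is a description only.

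Sets also moved with these values. Taken within the 12 sets, the intraclass correlation exceeded 0.5 in 16 members, against 3.87% of all genes, with a median of 0.44. Gstm1 kept 0.87, Gstp1 0.80, Cbr2 0.76 and Blvrb 0.75, while Slc7a11 went to 0.68, Gpx2 from 0.70 to 0.47 and Txnrd1, the thioredoxin reductase, from 0.63 to 0.35. Without set 1, Me1 went from 0.61 to 0.31, Srxn1 from 0.32 to 0.07, Abcc1 from 0.27 to 0.11 and Osgin1 from 0.11 to 0.01. Without set 11, Mgst2 went from 0.36 to -0.06. Other single sets moved a low value by more than 1.5-fold: without them Gstm5 had 0.03 (set 6), Mgst3 -0.01 (set 5), Gss 0.03 (set 8), Gsr 0.16 (set 3), Hmox1 0.06 (set 9) and Keap1 0.17 (set 12). Whatever distinguishes the sets was not tested.

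**Figure D3:**
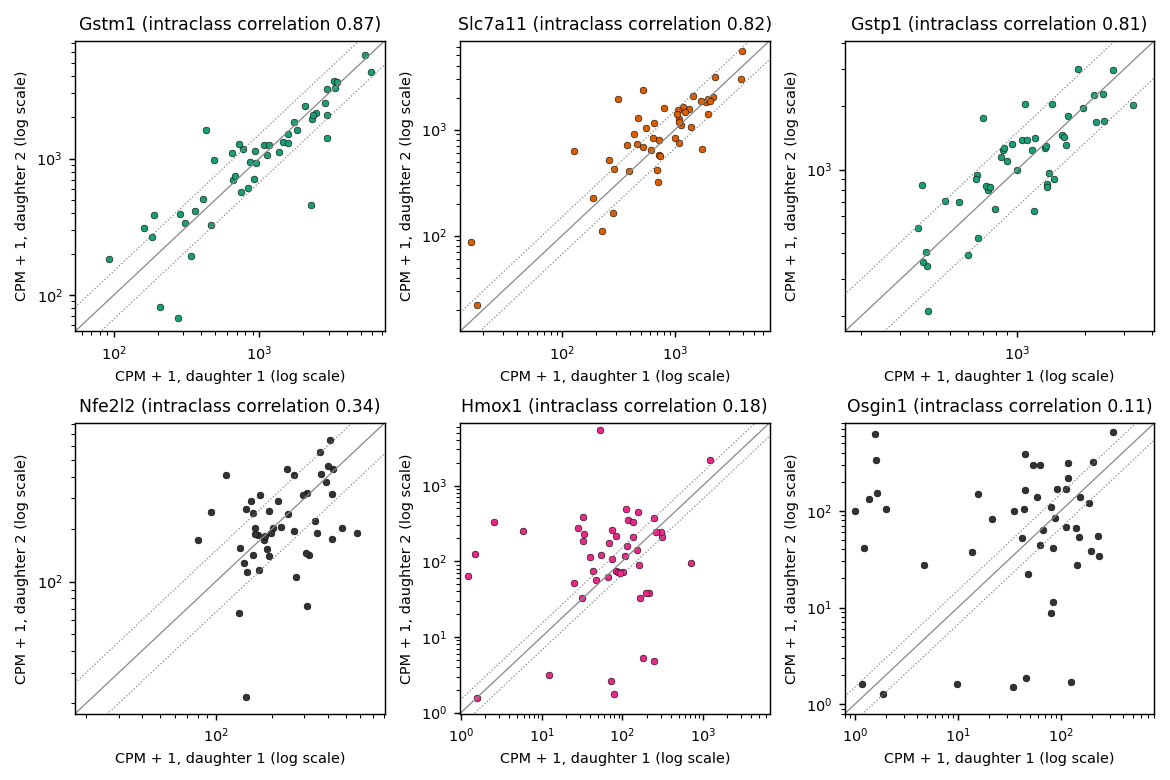
CPM + 1 of daughter 1 (horizontal) against daughter 2 (vertical) in 48 pairs on log axes, for Gstm1, Slc7a11, Gstp1, Nfe2l2, Hmox1 and Osgin1; each point is a pair, the solid line marks equal values and the dotted lines a 1.5-fold difference. Most pairs of Gstm1 lie near the diagonal, but 13 of 48 are 1.5-fold or more apart, pair 22 among them. Several pairs of Hmox1 and Osgin1 lie near 1 on a single axis.

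The difference between sisters was measured as the ratio of the higher to the lower daughter, on counts scaled by ERCC size factors plus 1, and a pair was called asymmetric from 1.5, the cutoff the study uses. In 18 of 42 members (42.9%) 24 or more of the 48 pairs were asymmetric, against 79.5% of the 14463 genes tested. The median member was asymmetric in 42.7% of pairs and the median gene in 68.8%. The members with the fewest asymmetric pairs were Gsta4, with 9 of 48 (18.8%, exact 95% interval 8.95 to 32.6), and Prdx1 and Gsto1 with 11 each. Those with the most were Blvra with 38 of 48 (79.2%, interval 65.0 to 89.5), Osgin1 with 36 (interval 60.4% to 86.4%), Gss with 35 (72.9%, 58.2 to 84.7), and Srxn1, Mgst1 and Mgst3 with 34 each (70.8%, 55.9 to 83.0).

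Single pairs show how far sisters could part. In pair 41 daughter 1 had no count of Osgin1, which allows 3 counts at most, and daughter 2 had 3761 counts (99.4 CPM). In pair 29 the Osgin1 levels were 0.576 and 617 CPM, although the same daughters were alike in Gsta4 with 6493 and 6326 CPM and in Gclc with 2275 and 2309 CPM. Pair 29 was thus among the highest for Gstm1, Slc7a11, Nqo1 and Gsta4 in both daughters and split for Osgin1. In pair 23 Gclc stood at 4.23 and 1096 CPM, in pair 33 Srxn1 at 422 and 0.320 CPM, and in pair 35 Blvra at 69.2 CPM and 0. In pair 3 the second daughter was the higher in Aldh3a1, with 1279 against 7.20 CPM, in Cbr2, with 10881 against 1353 CPM, and in Slc7a11, with 628 against 126 CPM. Of the regulators, Nfe2l2 was asymmetric in 21 pairs, near the median member, with its largest ratio of 5.94 in pair 46, and Keap1 in 31 pairs, with its largest ratio of 22.0 in pair 13.

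Asymmetry was lower at high counts in the ERCC transcripts too, which were added alike to each cell. Of 11 ERCC transcripts with a mean of 10000 or more counts, the median had 0 asymmetric pairs and the range was 0 to 20, and the 25 members at this level had 9 to 27 with a median of 17, and all 590 genes a median of 18. Of 15 ERCC transcripts with 1000 to 10000 counts, the median had 24 asymmetric pairs and the range was 7 to 40, and the 15 members had 17 to 36 with a median of 32. All of these 11 abundant ERCC transcripts are among the 22 that set the size factors, which by construction lowers their own ratios, and they carry no difference in RNA content, so that their numbers are not compared with those of the members. The abundant members were asymmetric about as often as other genes of like count. For the less abundant members, Blvra, Osgin1, Gss, Srxn1, Mgst1 and Mgst3 among them, the numbers lie within the range of the ERCC transcripts of their count class. Below 1000 counts, where Blvra lies, that range was 11 to 42 pairs, with a median of 35.5. These ranges are wide and some of these ERCC transcripts also set the size factors, so that no likeness is read from them. The 5777 genes with 1000 to 10000 counts had a median of 34 pairs. What part of the members' asymmetry is technical was not tested.

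**Figure D4:**
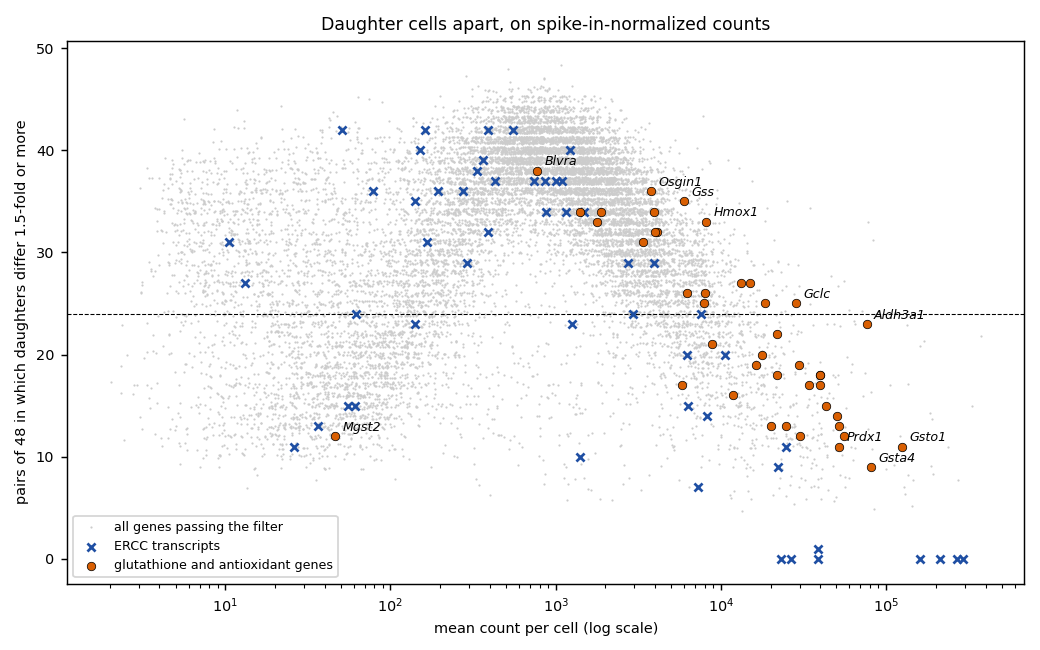
Number of the 48 pairs in which daughters differ 1.5-fold or more on ERCC-normalized counts (vertical axis) against the mean count per cell on a log axis, for all genes passing the filter (grey), ERCC transcripts (crosses) and 42 members (orange). The dashed line marks 24 pairs. At 10000 or more counts the ERCC transcripts lie mostly at 0, the members at 9 to 27, and all genes have a median of 18. These ERCC transcripts set the size factors, which lowers their own ratios, so that no contrast with the members is drawn.

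Whether the genes went up and down together was examined over pair means and, separately, over differences between sisters. Spearman's rho was used as a description over 48 values that share the libraries and their scaling, and no p is given. Each member was set against the mean z score of the other members. Of 42 members, 19 had a rho of 0.5 or more over pair means, with a median of 0.45. Among the 14421 genes that are no members, set against the score of all members, 0.576% did, with a median of -0.01. Mean counts had a median of 17055 over the members and of 771 over all genes that passed the filter. For no rho given here or below were genes of like count compared. The members that followed the others most closely were Gclm with 0.87, Nqo1 with 0.84, Slc7a11 with 0.83, Blvrb with 0.82, and Gclc and Cbr1 with 0.81 each. The group of synthesis and recycling genes had a median of 0.81 and the quinone, carbonyl and pigment enzymes one of 0.79. Nfe2l2 itself had 0.58 and Keap1 0.31. Cbr2, whose sisters were alike, was nearly unrelated to the rest with 0.02, and so were Mgst2, Mgst3, Blvra and Sqstm1 with 0.04 to 0.06. Prdx6 with -0.06 and Gpx1 with -0.29 were the 2 members below 0.

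Among the 861 combinations of 2 members, the median rho over pair means was 0.20. Of these, 105 combinations (12.2%) reached 0.5, against 0.103% of combinations of all genes, which were not matched by count. After Gstp1 with Gstp2 (0.99), whose reads may be shared, the closest were Gclm with Nqo1 (0.83), Gstm1 with Aldh3a1 (0.81), Gclm with Blvrb (0.81) and Slc7a11 with Blvrb (0.79). The lowest were Cbr3 with Gpx1 (-0.48) and Cbr2 with Hmox1 (-0.46). Gsta4 with Gsto1 had a rho of 0.71.

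Differences between sisters went together far less. Over these, 1 of 42 members, Nqo1 with 0.51, reached 0.5 with the others, and Gclc followed with 0.47. The median was 0.12, against 0.003 for the genes that are no members, set against the score of all members. The share of those genes that reached 0.5 over differences was not taken, so nothing is read from the 1 member. Of the 861 combinations 3 (0.348%) reached 0.5, against 0.0232% of combinations of all genes: Gstp1 with Gstp2 (0.95), Mgst3 with Gclm (0.55), whose rho over pair means was 0.06, and Gstm1 with Aldh3a1 (0.52). For Gclm with Aldh3a1 rho was 0.76 over pair means and 0.00 over differences, and for Gstm1 with Nqo1 0.74 and 0.09. The common level was thus seen between pairs more than within them.

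**Figure D5:**
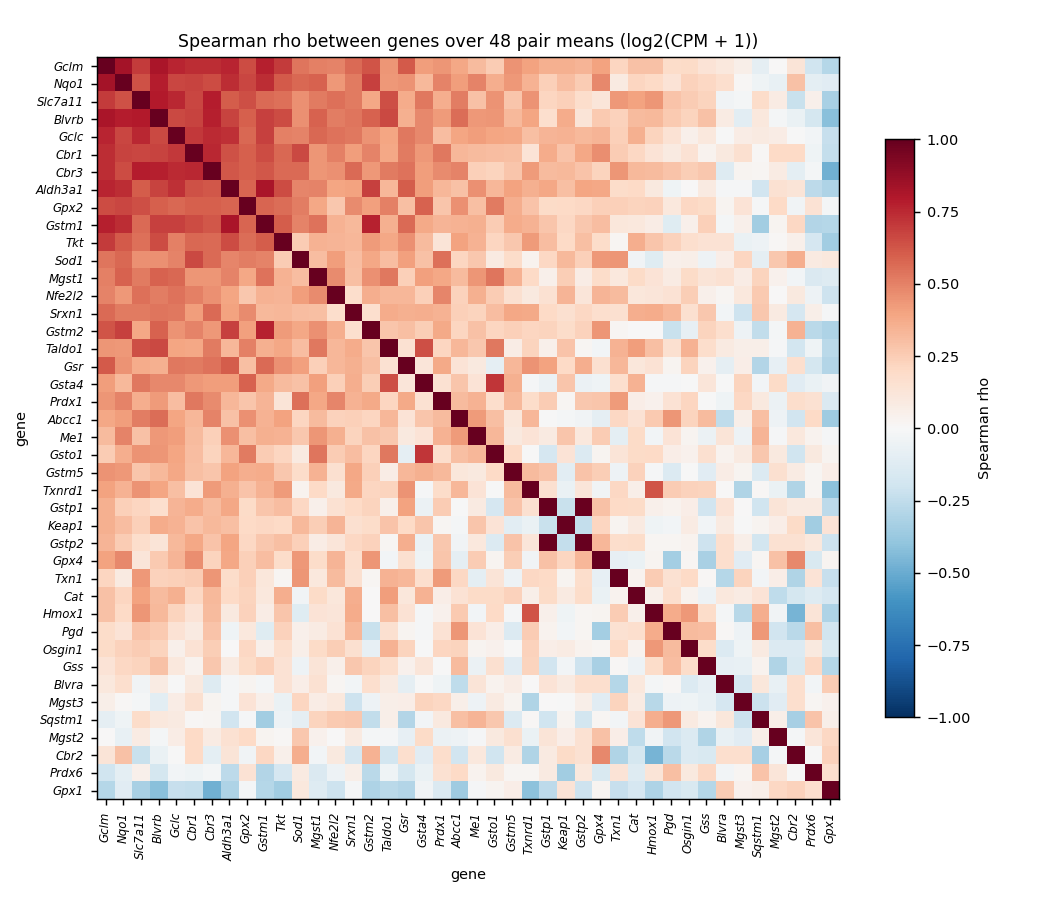
Spearman's rho between each 2 of 42 members over 48 pair means of log2(CPM + 1), with genes on both axes in the order of their rho with the other members and the colour scale running from -1 (blue) to 1 (red). Gclm, Nqo1, Slc7a11, Blvrb, Gclc, Cbr1, Cbr3 and Aldh3a1 form the red block at the upper left, Gstp1 with Gstp2 and Gsta4 with Gsto1 stand out beside it, and Gpx1 in the last row is mostly blue.

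The mean z score over the 42 members had an intraclass correlation of 0.84, and of 0.79 within sets. Scores of other lists had 0.74 (other pathway genes), 0.70 (cell cycle), 0.69 (glycolysis and hypoxia), 0.55 (squamous differentiation), 0.41 (xenobiotic enzymes) and 0.30 (integrated stress response). Sisters also shared library measures, with 0.63 for reads on genes, 0.72 for the ERCC size factor and 0.68 for genes detected. Likeness of sisters in a score is thus not particular to the members. Pair 12 had the highest mean score of the members, 0.83, with 0.93 and 0.72 in its daughters, and pair 2 the lowest, -1.15, with -1.12 and -1.17. All 4 pairs of set 1 had mean scores of -0.50 or lower, and 34 of the 42 members had a lower median in set 1 than in the other sets, against 48.7% of all genes. For 21 members the median in set 1 was at most 50% of that of the other sets, against 38.2% of all genes. Genes with a median of 0 on both sides, Mgst2 among the members, are part of both of these numbers, so that no contrast is drawn from them. In the count of lower medians such genes stand as not lower. Gclc had a median of 76.4 CPM in set 1 and of 681 CPM elsewhere, Slc7a11 97.5 and 1048 CPM, and Srxn1 0.718 and 84.8 CPM. Gsta4 was almost level, with 2019 and 2181 CPM. Reads, ERCC share and mitochondrial share of set 1 lay inside the range of the other sets, and its median of 12292.5 genes detected was the lowest of the 12.

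The score was set beside other gene lists and measures over the 48 pair means. With 15 olfactory and airway xenobiotic enzymes that passed the filter, of 27 listed, rho was 0.53 (Pearson's r 0.44), 0.70 without set 1, and 0.37 on ERCC-normalized counts. With the cell cycle genes rho was -0.06, with squamous differentiation genes -0.19, with integrated stress response genes 0.02 and with glycolysis and hypoxia genes -0.22. On ERCC-normalized counts, which keep differences in RNA content between cells, these last 4 values were 0.39, 0.38, 0.43 and 0.32, so no direction is drawn for them, and the xenobiotic enzymes did not stand out from them on that scale. With reads on genes rho was -0.24, with the ERCC size factor 0.16, with genes detected -0.09 and with the mitochondrial share 0.25. Without set 1 these 4 values were -0.17, 0.35, -0.34 and 0.43, and the part of these measures in the score was not tested. H3f3a, the gene of the histone variant H3.3 that the study follows, had a rho of 0.53 with the score over pair means and of 0.08 over differences between sisters, and H3f3b had 0.01 and -0.08. The list of 8 HBC markers had -0.29, -0.38 without set 1 and -0.41 with set means removed. Of its genes, Trp63, which encodes p63, had 0.26, Krt5 -0.11 and Krt14 -0.32, which was -0.54 with set means removed. The other genes of this list were not read singly. For H3f3a, H3f3b and the HBC markers no value was taken on ERCC-normalized counts, so no direction is drawn for them either.

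The rest of the pathway was read from a list of 55 other glutathione and antioxidant genes, of which 49 passed the filter. An intraclass correlation over 0.5 was found in 7 of them (14.3%), against 59.5% of the members and 4.4% of all genes that passed the filter. Their median was 0.22, against 0.54 and 0.11. The highest were the transferase Gsta2 with 0.79, Ftl1, the ferritin light chain that stores iron, with 0.76, Esd, which hydrolyses S-formylglutathione, with 0.68, Gstm3 with 0.66 and Gsta1 with 0.64. The lowest were Prdx2 with -0.12, Gstz1 with -0.10, Gpx8 and Msra with -0.08 each and Nqo2 with -0.01. Of the 49, 38 (77.6%) were asymmetric in 24 or more pairs, near the 79.5% of all genes that passed the filter. A rho of 0.5 or more with the member score was found in 11 (22.4%), against 0.576% of all genes that are no members. Among these 11 were Gsta3 with 0.74, G6pdx, the first enzyme of the NADPH-making pentose phosphate pathway, with 0.67, and Slc3a2, the partner chain of Slc7a11, with 0.66. The NRF2 partners and competitors were not among these: Mafg had 0.26, Bach1 0.19, Mafk 0.01 and Maff -0.16.

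The genes outside the list whose pair means were most like the score were led by Adh7, an alcohol and retinol dehydrogenase of epithelia, with a rho of 0.79 and levels from 1.34 through 248 to 6743 CPM. Next came Gstm2-ps1 with 0.76, Gsta3 with 0.74, Ugt1a7c, a glucuronosyltransferase, with 0.72, Pgrmc1, a haem-binding partner of cytochromes P450, with 0.72, Ftl1-ps2 and Gm15590 with 0.71 each, and Gm12164, Ucp2 and Ftl2-ps with 0.70 each. Gstm2-ps1, Ftl1-ps2 and Ftl2-ps are named as pseudogene copies of Gstm2 and the ferritin light chain, and their counts could hold reads of the parent genes. The most opposite were Anxa2, a calcium-dependent membrane-binding protein, with -0.72 and levels from 826 through 2437 to 9143 CPM, Gm16286 with -0.64, Mllt3 and Eif5a with -0.63, Serpinb2 and Nsun2 with -0.60, and Ctps, Pttg1ip and Rrad with -0.59. Without set 1 Adh7 had 0.77 and Anxa2 -0.67.

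Several members share exon bases with other annotated genes, so their counts could include reads of these. Gss overlaps Acss2 on the opposite strand by 395 of its 5915 exon bases, and Acss2 had a median of 46.7 CPM. Gclm overlaps Gm17494 on the opposite strand by 296 of 6291 bases, with a median of 109 CPM for Gm17494. Keap1 overlaps Gm16754 by 510 of 4693 bases, with a median of 4.20 CPM. Gstm5, Me1, Sqstm1 and Tkt overlap genes with a median of 0.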

How the data were processed

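RNA of 96 single cells, the daughters of 48 HBC divisions, was read by G&T-seq, with ERCC transcripts as spike-in. The authors trimmed reads with Trimmomatic 0.39, aligned both mates with STAR 2.7.11a to GRCm38 (Ensembl release 100) with the ERCC sequences added, and ran StringTie 2.2.1. They deposited raw counts of each gene in each cell, not normalized, and TPM per gene for each cell. All values were computed from the counts except those given as TPM. CPM used the counts on genes without ERCC. ERCC size factors were medians of ratios, taken on the 22 ERCC transcripts of 92 that had a count in all cells. The pseudocount was 1 and the filter 10 counts in 10% of cells. Genes of equal symbol on several rows (Ddit3, Aldoa) were taken from the row with the larger total. Intraclass correlations were one-way over pairs. Intervals are exact Clopper-Pearson at 95%, and a count of 0 was read as up to 3 counts. Cells were picked by hand, so no doublet caller was run, and no cell was left out.

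The labels name neither mouse nor dish, so no test was made and no count model was fitted. The members and gene lists were chosen with earlier results of these data known. All members are accounted for; those named in full are those at either end of the order by intraclass correlation (6 each), the 6 with the highest median TPM, the 6 with the most asymmetric pairs, Nfe2l2 and Keap1. Outside the list the 10 genes most and the 10 least like the score are named, except 1 that is not reported here, and from the pathway list 5 genes at either end of the order by intraclass correlation; H3f3a, H3f3b, Trp63, Krt5, Krt14, Cyp2a5, Gsta3, G6pdx, Slc3a2 and the genes of the small MAF and BACH1 proteins were named after their values were seen. The intraclass correlation and the ratio were tested on simulated data. Promoters are RefSeq's (GRCm38.p6), exon overlaps and transcripts GENCODE M21's. Python 3.11.15 was used with numpy 2.4.6, scipy 1.17.1, pandas 2.3.3 and matplotlib 3.10.9. Scaling, pseudocount, filter, cutoff and sets were varied as alternatives; leaving out set 1 for the relations of the score, and the split by mean count, were added after the data were seen.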

Additional observations from a re-analysis of the deposited data

How the results depend on the processing

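The number of members with an intraclass correlation over 0.5 was 20 to 25 and their median 0.50 to 0.58 when each set of 8 cells was left out in turn. Within sets the number was 16 and the median 0.44; the alternative removes what the cells of a set share. The median share of asymmetric pairs over the members, 42.7%, was 37.5% on library totals and 21.9% at a cutoff of 2. On ERCC-normalized counts the median rho between members was 0.31 over pair means and 0.11 over differences, and the rho of the score with the integrated stress response was 0.43; those with the cell cycle (0.39), squamous differentiation (0.38) and glycolysis and hypoxia (0.32) turned from negative to positive. With a score over 10 NRF2 targets alone, the value for the cell cycle was 0.0596. The cause of these shifts was not tested. Of 109 alternatives, all 60 that left out a set and 38 of the 49 others stayed within a limit. So did the 5 added later, which left out set 1. The limit was the spread over sets or, for counts of members, 1.5 times the count. This spread was computed from the values with a set left out. For alternatives that leave out a set, agreement with it was therefore nearly fixed in advance and shows no stability. Every measure over pairs already uses the pairing of daughters, and with a single group no comparison of groups could be blocked by it. At 1000 to 10000 counts ERCC transcripts were asymmetric in 7 to 40 pairs, with a median of 24. The members were asymmetric in 17 to 36 pairs, with a median of 32, and all genes of this class had a median of 34. Some of these ERCC transcripts set the size factors, which lowers their own ratios, so that no contrast with the members is drawn.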

Other observations

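Aqp5, a water channel of Bowman glands and other secretory cells, was counted in all 96 cells, from 10.5 through 1072 to 8461 CPM, and was the only one of 10 listed markers of Bowman gland and respiratory secretory cells that passed the filter. Sox10, Muc5b, Muc5ac, Scgb1a1, Obp2a and Obp1a, of the same list, had no count in any cell. Its intraclass correlation was 0.70. Its rho with the score of the glutathione and antioxidant genes was 0.33 over the 48 pair means, and 0.49 without set 1.

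The keratins Krt8 and Krt18, which sustentacular cells and other simple epithelia share, were also found in every cell. Their medians were 1411 and 1191 CPM, and their intraclass correlations were 0.63 and 0.75. Il33, a further marker on the sustentacular list, was counted in 7 cells, with 9.22 CPM as the highest value.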
